A study of Homo sapiens with 2 samples.

Results

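The genes described here were 39 genes of transfer RNA (tRNA) charging, chosen by a list of symbols. They were 20 cytosolic aminoacyl-tRNA synthetases, 16 mitochondrial aminoacyl-tRNA synthetases (the symbols that end in 2) and the 3 scaffold proteins AIMP1, AIMP2 and EEF1E1, out of 57485 genes in the tables. RNA was sequenced from ARP1-SRD5A1-KD cells, that is, the human multiple myeloma (MM) line ARP1 with a lentiviral TRIPZ vector whose hairpin against SRD5A1 is induced by doxycycline (Dox). There was 1 library labelled as untreated and 1 library labelled as treated with Dox, and both carried the vector. For the treated library the genotype entry reads SRD5A2, whereas its title and the series design read SRD5A1. The hairpin was 1 construct, a library of cells with Dox but without the hairpin was not analysed here, and the dose and duration of Dox for these libraries are not given in the sources used here.

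Aminoacyl-tRNA synthetases join each amino acid to its tRNA, which delivers it to the ribosome. All of them are encoded in the nucleus, but the cytosol and the mitochondrion use largely separate enzymes, and the mitochondrial set serves the few proteins translated inside that organelle. In the cytosol, part of the enzymes sit in a multisynthetase complex held together by AIMP1, AIMP2 and EEF1E1. Plasma cells, from which MM arises, secrete large amounts of immunoglobulin and so depend on cytosolic translation.

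The 2 libraries held 45918570 (without Dox) and 48728927 (with Dox) expected counts, and the members had between 251 and 55752 counts. SRD5A1, the gene the hairpin targets, went against its label, with 13.04 FPKM without Dox and 25.88 with Dox (log2 ratio 0.98, counting interval 0.89 to 1.08). By western blot, a measure of protein and not of RNA, the paper reports SRD5A1 as lower in ARP1 cells after Dox. With 1 library per condition no difference has a replicate check, so no p-value is given and every value below compares these 2 libraries, not the conditions. With Dox and without Dox stand for the labels throughout, and an exchange of the 2 labels, which was not tested, would turn every direction given here. The log2 ratio is the log2 of FPKM with Dox over FPKM without Dox, each with a pseudocount of 0.1, which understates differences of low genes. A gene was tested when either library listed it at 1 FPKM or more, and all 39 members were among the 14859 tested genes. Each counting interval is a 95% interval from the exact binomial (Clopper-Pearson) method and covers counting error only. The median log2 ratio of all tested genes was 0.15, and that of the 11459 tested protein-coding genes was 0.07. As plasma cell markers, 8 genes such as SDC1, IRF4 and XBP1 ranged from 15.73 to 834.39 FPKM over both libraries, and their summed level was 2398.37 without Dox and 2304.81 with Dox. They did not move alike, since SLAMF7 (log2 ratio 1.40) and TNFRSF17 (1.06) were past 2-fold upwards and SDC1 had a log2 ratio of -0.54, and the part of this in the results was not tested. The 2 mature B cell markers reported reached at most 1.32 FPKM and summed to 1.42 FPKM without Dox and 1.06 FPKM with Dox. The 3 T cell markers reached at most 0.31 FPKM, with CD3D and CD2 at 0 counts in both libraries. The 3 fibroblast markers reached at most 0.38 FPKM, with DCN at 0 counts in both libraries. The 3 epithelial markers summed to 8.71 FPKM without Dox and 4.04 FPKM with Dox, but they did not move alike. KRT18 had 6.0 and 1.44 FPKM (log2 ratio -1.99), EPCAM 1.93 and 1.52 FPKM (-0.33), and KRT8 0.78 and 1.08 FPKM (0.42). The part of these markers in the results was not tested.

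By their medians, the cytosolic enzymes were higher and the mitochondrial enzymes lower in the library labelled as treated with Dox. This held under each alternative tried. The 20 cytosolic enzymes had a median log2 ratio of 1.10, from -1.35 for FARSA to 2.41 for SARS. Of these, 11 were more than 2-fold higher in the library labelled with Dox (55.0%) and 1 was more than 2-fold lower (5.0%). Among all tested genes, 17.0% were past 2-fold upwards and 6.41% past 2-fold downwards, and among tested protein-coding genes these shares were 11.8% and 6.03%. The 16 mitochondrial enzymes had a median log2 ratio of -0.63, from -1.43 for WARS2 to 0.45 for PARS2, with 0 of 16 past 2-fold upwards and 4 of 16 past 2-fold downwards. The 3 scaffold genes had a median of -0.06 (0.04 with TPM), and none of them was past 2-fold. The cytosolic median exceeded the mitochondrial median by 1.74 on the log2 scale. In bulk RNA such as this, fewer cells of a type and less RNA per cell cannot be told apart.

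**Figure D1:**
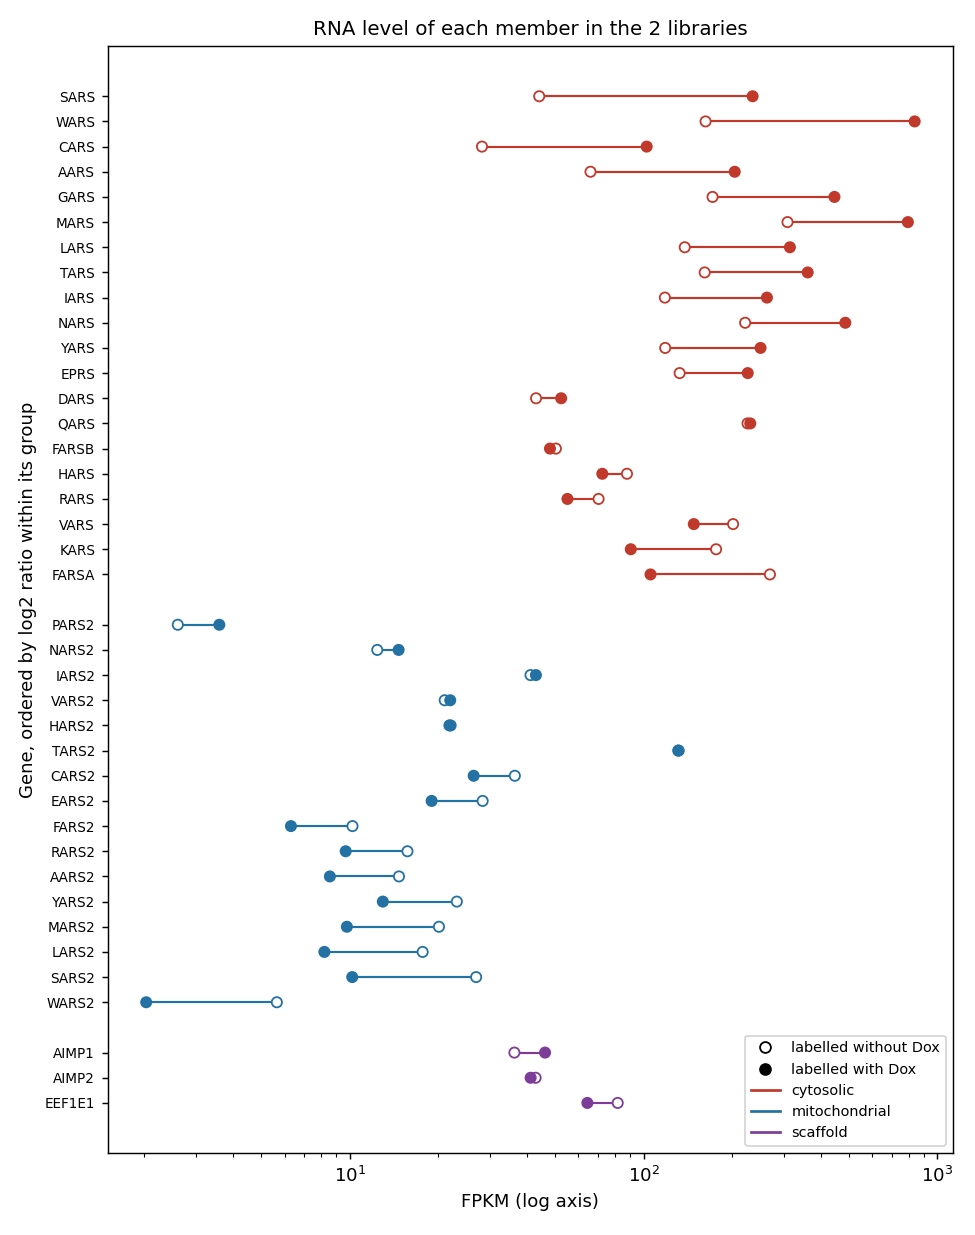
FPKM on a log axis of the 39 members in the library labelled without Dox (open circles) and the library labelled with Dox (filled circles), 1 library each, coloured by group and ordered within a group by log2 ratio. The upper 11 cytosolic genes lie more than 2-fold to the right with Dox, while the lower 4 mitochondrial genes, MARS2 to WARS2, lie more than 2-fold to the left.

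The counts past 2-fold depended on the scaling. Rescaling FPKM by TMM factors or by DESeq2 size factors moved the median of all tested genes by -0.20 and -0.22. Of the tested genes past 2-fold, 72.6% were higher with Dox on deposited FPKM, 56.0% after TMM and 55.2% after DESeq2 scaling. Under either of them 6 cytosolic enzymes stayed more than 2-fold higher, namely AARS, CARS, GARS, MARS, SARS and WARS, while KARS joined FARSA as more than 2-fold lower. The mitochondrial enzymes more than 2-fold lower became 5 with either scaling, since YARS2 was added. The background moved as well, to 13.1% of all tested genes past 2-fold upwards and 10.3% downwards with TMM, and to 12.9% and 10.5% with DESeq2 size factors. Relative to the median of all tested genes, the cytosolic median was 0.95 higher with all 3 scalings. The mitochondrial median differed from it by -0.78 on deposited FPKM and by -0.79 after either rescaling. Either rescaling multiplies each library by a constant and shifts all log2 ratios alike, so these distances could not change beyond the pseudocount and are no check. Counted against that median, 13 of 20 cytosolic enzymes lay above it and 14 of 16 mitochondrial enzymes lay below it.

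The 2 groups did not separate gene by gene. All 16 mitochondrial enzymes lay below the cytosolic median. That median lies between YARS and NARS, whose ratios were above those of 84.5% and 85.5% of tested genes. Of the 20 cytosolic enzymes, 12 lay above PARS2, the highest mitochondrial one, whose ratio was above that of 64.9% of tested genes. The other 8 cytosolic enzymes, DARS, QARS, FARSB, HARS, RARS, VARS, KARS and FARSA, had log2 ratios within the mitochondrial range. Summed over the group, the cytosolic enzymes went from 2795.9 FPKM without Dox to 5321.1 FPKM with Dox, a ratio of 1.90. The mitochondrial sum went from 429.3 to 350.1 FPKM, a ratio of 0.82. The cytosolic sum was therefore 6.51 times the mitochondrial sum in the library labelled without Dox and 15.2 times in the library labelled with Dox.

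Among the cytosolic enzymes, SARS and WARS differed most between the libraries. SARS, which charges tRNA with serine and also serylates the selenocysteine tRNA, had 2956 counts and 44.14 FPKM without Dox and 16714 counts and 234.94 FPKM with Dox. Its log2 ratio was 2.41 (counting interval 2.35 to 2.47), a ratio above that of 97.0% of tested genes. In GENCODE release 29 (GRCh38), SARS (ENSG00000031698.12) spans 109213918 to 109238169 of chromosome 1, forward strand. WARS, the tryptophan enzyme and also a well-known interferon-inducible gene, had 10033 counts and 162.5 FPKM without Dox and 55752 counts and 836.34 FPKM with Dox. With a log2 ratio of 2.36 (counting interval 2.33 to 2.39), WARS had the highest level of all members in the library labelled with Dox. WARS (ENSG00000140105.17) lies on the reverse strand of chromosome 14 from 100333788 to 100376805.

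CARS, the cysteine enzyme, was the lowest cytosolic member without Dox at 28.19 FPKM and stood at 102.46 FPKM with Dox (log2 ratio 1.86, counting interval 1.79 to 1.92). AARS, which charges alanine, had 65.97 FPKM without Dox and 204.2 FPKM with Dox (log2 ratio 1.63, counting interval 1.59 to 1.66). Both were thus more than 3-fold higher in the library labelled with Dox. GARS, the glycine enzyme, serves both the cytosol and the mitochondrion from 1 gene, and its level was 171.65 FPKM without Dox and 446.15 FPKM with Dox (log2 ratio 1.38). MARS, the methionine enzyme, had 308.83 FPKM without Dox, the highest FPKM of all members in that library, and 793.14 FPKM with Dox (log2 ratio 1.36). Its listed mean length without Dox was short, at 909.04 bases. By counts MARS (9826) was below VARS (21571) and EPRS (21391), among others, in that library. SARS, WARS, CARS, AARS, GARS and MARS are the 6 that were past 2-fold under every scaling tried.

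A further 5 cytosolic enzymes were higher with Dox by a little over 2-fold, and these were within 2-fold after TMM or DESeq2 scaling. LARS, the leucine enzyme, went from 138.05 FPKM without Dox to 314.69 FPKM with Dox (log2 ratio 1.19). TARS, the threonine enzyme, went from 161.4 to 361.76 FPKM (1.16), and IARS, the isoleucine enzyme, from 118.14 to 262.83 FPKM (1.15). LARS and IARS both belong to the multisynthetase complex, and TARS does not. NARS, which charges asparagine, went from 221.58 to 485.72 FPKM (1.13). YARS, which charges tyrosine, went from 118.44 to 250.01 FPKM (1.08, counting interval 1.04 to 1.11) and was the closest to the 2-fold limit from above.

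EPRS and DARS were higher with Dox by less than 2-fold. EPRS, a single protein that charges both glutamate and proline, had 132.64 FPKM without Dox and 226.14 FPKM with Dox (log2 ratio 0.77). DARS, the aspartate enzyme, had 43.06 and 52.42 FPKM (0.28). QARS, the glutamine enzyme, had 225.76 and 230.66 FPKM, and its log2 ratio of 0.03 had a counting interval of -0.01 to 0.07. FARSB, the beta subunit of the phenylalanine enzyme, had 50.29 and 48.02 FPKM (log2 ratio -0.07). The sign of QARS and FARSB changed in some of the alternatives.

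The remaining 5 cytosolic enzymes were lower in the library labelled with Dox. FARSA, the alpha subunit that works in 1 tetramer with FARSB, had 12362 counts and 269.09 FPKM without Dox and 5340 counts and 105.57 FPKM with Dox. Its log2 ratio was -1.35 (counting interval -1.40 to -1.30), so the genes of the 2 subunits of 1 enzyme differed by more than 1 on the log2 scale. FARSA (ENSG00000179115.10) lies on the reverse strand of chromosome 19 from 12922479 to 12934037. KARS, the lysine enzyme, which like GARS serves both compartments from 1 gene, had 176.51 FPKM without Dox and 90.45 FPKM with Dox (log2 ratio -0.96). The pair of dual enzymes therefore lay on opposite sides of the cytosolic median. VARS, the valine enzyme, had 201.62 and 148.18 FPKM (-0.44), RARS, the arginine enzyme, 70.28 and 55.07 FPKM (-0.35), and HARS, the histidine enzyme, 87.79 and 72.37 FPKM (-0.28).

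Of the 33 members with a promoter in the RefSeq table (16 cytosolic, 14 mitochondrial and the 3 scaffold genes), the window from 250 bases before to 50 bases after the start site was searched on both strands. The letters searched were TGATGNAA, a form of the composite element known as a site of ATF4 with a C/EBP partner. They were found in 7 of 16 cytosolic promoters (43.8%), in 1 of 14 mitochondrial promoters and in 0 of 3 scaffold promoters. The background was 4.46% of all 27305 genes with a window and 3.60% of the 15843 protein-coding ones. The 7 cytosolic genes were AARS, CARS, GARS, IARS, MARS, NARS and TARS, all of them among the 9 matched cytosolic genes more than 2-fold higher with Dox. SARS and WARS were the other 2 of those 9 and did not hold the letters in this window, and neither did the 7 matched cytosolic genes that were not more than 2-fold higher. Among all tested genes with a window, members included, 5.44% of the 1323 more than 2-fold higher held the letters, and 2.29% of the 8665 others. The stricter letters TGATGCAA, a special case of the first, were added after the sequences had been seen. They were in all of the 7 but GARS, in 0 mitochondrial promoters and in 1.08% of all genes of the table. The 8 sites are printed because they are all the matches among the members, 7 of them in cytosolic genes past 2-fold upwards and 1 in YARS2, which was within 2-fold. Each is 30 bases of RefSeq sequence of build GRCh38.p14, read 5′ to 3′ on the strand of the gene, with the matched letters in capitals. In all but NARS and YARS2 the match is on the opposite strand, so the capitals show the reverse complement.
AARS, chr16:70289675-70289704, reverse strand: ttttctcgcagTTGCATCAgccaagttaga
CARS, chr11:3057407-3057436, reverse strand: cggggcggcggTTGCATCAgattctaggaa
GARS, chr7:30594834-30594863, forward strand: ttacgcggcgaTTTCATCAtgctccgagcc
IARS, chr9:92293692-92293721, reverse strand: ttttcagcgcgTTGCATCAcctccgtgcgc
MARS, chr12:57488053-57488082, forward strand: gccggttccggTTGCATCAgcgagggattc
NARS, chr18:57621804-57621833, reverse strand: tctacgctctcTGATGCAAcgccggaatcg
TARS, chr5:33440956-33440985, forward strand: gcgcctttcgaTTGCATCAgctggtccagc
YARS2, chr12:32756076-32756105, reverse strand: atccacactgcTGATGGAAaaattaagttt

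Counted from the first transcribed base as 0, the match began within 33 bases of the start site in 6 of the 7 cytosolic genes. It began at -33 in GARS, -13 in IARS, -4 in MARS, -2 in CARS, 2 in TARS and 14 in NARS. The site of AARS began farther upstream, at -187, as did that of YARS2, at -197. Among the 9988 tested genes matched to the promoter table, 270 held TGATGNAA, of which 26.7% were more than 2-fold higher with Dox (median log2 ratio 0.45). Of the 9718 tested genes without it, 12.9% were more than 2-fold higher (median 0.10). The 270 include the 7 cytosolic genes and YARS2. With the stricter TGATGCAA, 35.9% of 78 tested genes were more than 2-fold higher (median 0.77), against 13.1% of 9910 without it (median 0.10). These 78 include the 6 cytosolic members with the stricter letters, which were chosen after the sequences had been seen. That share is therefore not separate from the members. A match describes letters in a window and says nothing of binding in these cells, and no match says only that the letters are not in that window.

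**Figure D2:**
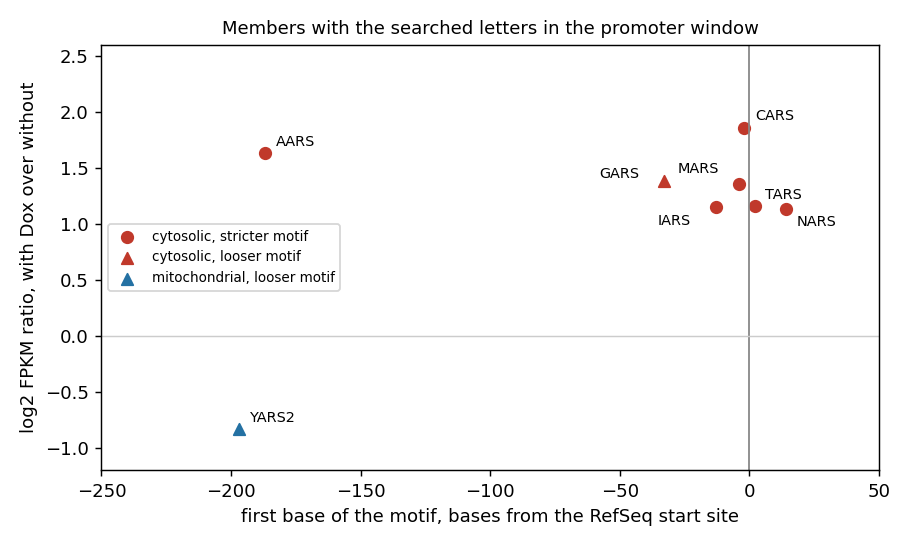
Log2 FPKM ratio (with Dox over without) of the 8 members with the searched letters in the promoter window, against the position of the first matched base in bases from the RefSeq start site; circles mark the stricter letters and triangles the looser letters alone. The 7 cytosolic genes have log2 ratios from 1.13 to 1.86 and 6 of them lie within 33 bases of the start site, while YARS2 has a log2 ratio of -0.83.

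Among the mitochondrial enzymes, 4 were past 2-fold downwards with Dox. WARS2, the mitochondrial tryptophan enzyme, had 564 counts and 5.65 FPKM without Dox and 253 counts and 2.03 FPKM with Dox. Its log2 ratio of -1.43 (counting interval -1.65 to -1.22) was the lowest of all 39 members. SARS2, the mitochondrial serine enzyme, had 26.93 FPKM without Dox and 10.2 FPKM with Dox (log2 ratio -1.39, counting interval -1.53 to -1.25). These 2 are the mitochondrial counterparts of WARS and SARS, the cytosolic enzymes with the highest ratios. WARS2 (ENSG00000116874.11) lies on the reverse strand of chromosome 1 from 119031216 to 119140671, and SARS2 (ENSG00000104835.14) on the reverse strand of chromosome 19 from 38915266 to 38930896. LARS2, the mitochondrial leucine enzyme, had 17.71 and 8.2 FPKM (log2 ratio -1.10). MARS2, the mitochondrial methionine enzyme, had 20.12 and 9.78 FPKM (-1.03, counting interval -1.13 to -0.94), close enough to the limit that it was within 2-fold when the pseudocount was 1 FPKM and when TPM was used.

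A further 6 mitochondrial enzymes had log2 ratios between -0.83 and -0.46. YARS2, for tyrosine, had 23.15 FPKM without Dox and 12.96 FPKM with Dox (-0.83). AARS2, for alanine, had 14.71 and 8.56 FPKM (-0.77). RARS2, for arginine, had 15.72 and 9.69 FPKM, and FARS2, a single-subunit phenylalanine enzyme unlike its cytosolic counterpart, had 10.22 and 6.31 FPKM (both -0.69). EARS2, for glutamate, had 28.34 and 19.0 FPKM (-0.57), and CARS2, for cysteine, had 36.46 and 26.41 FPKM (-0.46). The counting intervals of all 6 lay below 0.

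The other 6 mitochondrial enzymes had log2 ratios from 0.00 upwards. TARS2, for threonine, was the most abundant mitochondrial enzyme in both libraries, at 131.2 FPKM without Dox and 131.62 FPKM with Dox (log2 ratio 0.00, counting interval -0.04 to 0.04). HARS2, for histidine, had 21.84 and 22.05 FPKM (0.01), VARS2, for valine, 21.05 and 21.98 FPKM (0.06), and IARS2, for isoleucine, 41.23 and 43.01 FPKM (0.06). The sign of HARS2, VARS2 and IARS2 changed in some of the alternatives, and TARS2 ranged from -0.21 to 0.11 across them. NARS2, for asparagine, had 12.41 and 14.67 FPKM (0.24). PARS2, the mitochondrial proline enzyme and the member with the fewest counts without Dox, had 251 counts and 2.6 FPKM without Dox and 369 counts and 3.6 FPKM with Dox (log2 ratio 0.45, counting interval 0.22 to 0.69).

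Each amino acid with both a cytosolic and a mitochondrial member allowed a comparison within the pair, and there were 17 pairs for 16 amino acids. EPRS and FARS2 each entered 2 of them. The cytosolic gene had the higher log2 ratio in 14 pairs and the mitochondrial gene in 3, and the median difference, cytosolic minus mitochondrial, was 1.16. The 3 pairs with the higher mitochondrial ratio were FARSA with FARS2 (difference -0.66), VARS with VARS2 (-0.51) and HARS with HARS2 (-0.29). A difference above 1 was found in 10 pairs, and both SARS with SARS2 and WARS with WARS2 reached 3.80.

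Read as levels, SARS had 1.64 times the FPKM of SARS2 in the library labelled without Dox and 23.03 times in the library labelled with Dox. For WARS over WARS2 the ratio of FPKM went from 28.76 to 411.99. CARS was below CARS2 without Dox, at 0.77 times its FPKM, and above it with Dox, at 3.88 times. That was the one pair whose order of levels differed between the libraries. AARS over AARS2 went from 4.48 to 23.86, LARS over LARS2 from 7.8 to 38.38 and MARS over MARS2 from 15.35 to 81.1. The FPKM ratios of MARS over MARS2 also reflect listed mean lengths of 909.04 and 3019 bases without Dox. By counts, MARS had 9826 without Dox and 27021 with Dox, and MARS2 had 2565 and 1322. TARS and TARS2 stayed closest with Dox, at 1.23 times without Dox and 2.75 times with Dox.

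**Figure D3:**
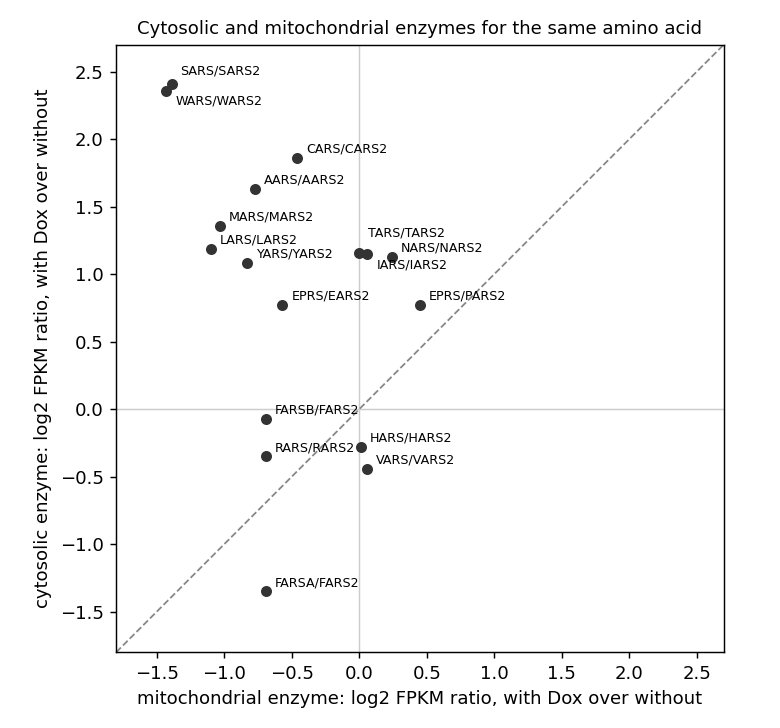
Log2 FPKM ratio (with Dox over without) of the cytosolic enzyme against that of the mitochondrial enzyme for the same amino acid, 1 point for each of 17 pairs; the dashed line marks equal ratios. The 14 points above the line include SARS/SARS2 and WARS/WARS2 at the upper left, and the 3 below it are FARSA/FARS2, VARS/VARS2 and HARS/HARS2.

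The 3 scaffold genes had log2 ratios between -0.34 and 0.35. AIMP1, which also has a secreted cytokine form, had 36.34 FPKM without Dox and 46.2 FPKM with Dox (log2 ratio 0.35). AIMP2 had 42.9 and 41.27 FPKM (-0.06, counting interval -0.15 to 0.04), and EEF1E1, also called AIMP3, had 81.64 and 64.37 FPKM (-0.34). The median log2 ratio of the 8 enzymes in the multisynthetase complex was 0.53, and 3 of them were past 2-fold upwards (MARS, LARS and IARS) and 0 downwards. For the 12 cytosolic enzymes outside it the median was 1.15, and 8 were past 2-fold upwards and 1 downwards. The deposited annotation also gives the complex term to YARS (log2 ratio 1.08), which is counted here among the 12 outside it. The difference between these lists was not tested.

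Synthetases fall into 2 structural classes with different folds of the catalytic domain. Among cytosolic enzymes, 6 of the 9 in class I were past 2-fold upwards and 0 downwards (median log2 ratio 1.15), and 5 of the 10 in class II upwards and 1 downwards (median 0.71). EPRS was left out because it joins an enzyme of each class. In the mitochondrial set, 3 of the 9 class I enzymes were past 2-fold downwards (median -0.69), and 1 of the 7 class II enzymes (median 0.00). The classes were not tested against each other. In the annotation columns of the deposited tables, all 16 mitochondrial enzymes carried the term mitochondrion, as did 8 of the 20 cytosolic ones (AARS, GARS, HARS, KARS, NARS, QARS, RARS and VARS). Of those 8, AARS, GARS and NARS were more than 2-fold higher with Dox. The term cytosol was carried by all 20 cytosolic enzymes and by 7 of the 16 mitochondrial ones (AARS2, HARS2, IARS2, LARS2, NARS2, VARS2 and YARS2).

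Other genes of tRNA charging and elongation gave a setting for these values. Of 28 such genes, 27 were tested, and 3 were more than 2-fold higher with Dox and 0 lower. A count of 3 in 27 is no larger a share than the 17.0% of all tested genes or the 11.8% of protein-coding genes. XPOT, the exportin that carries tRNA out of the nucleus, had 66.65 FPKM without Dox and 191.37 FPKM with Dox (log2 ratio 1.52). ELAC1, a tRNA 3′ processing enzyme, had 6.59 and 14.13 FPKM (1.09). SEPSECS, which makes selenocysteinyl-tRNA from the tRNA that SARS has charged, had 3.31 and 7.96 FPKM (1.24). The rest of tRNA maturation and export was within 2-fold, with RTCB, the tRNA ligase, at 69.87 and 51.85 FPKM (-0.43).

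None of the tested elongation factors was past 2-fold. The 6 tested cytosolic elongation genes had a median log2 ratio of 0.12, and EEF1A1, which brings charged tRNA to the ribosome, had 4998.16 FPKM without Dox and 5529.65 FPKM with Dox (0.15). EEF1A2 was not tested, with 3 counts in each library. The 4 mitochondrial elongation genes had a median of -0.50, and TUFM, the mitochondrial counterpart of EEF1A1, had 209.7 and 126.48 FPKM (-0.73). The 4 genes of the mitochondrial amidotransferase (GATB, GATC, QRSL1) and formyltransferase (MTFMT), which finish the charging of glutamine and initiator tRNA there, had a median of 0.17, with GATB at 23.47 and 27.59 FPKM (0.23). The 4 selenocysteine genes had a median of 0.41 and the 3 editing genes -0.19, with SECISBP2 at 31.99 and 61.59 FPKM (0.94) and AARSD1 at 57.23 and 62.77 FPKM (0.13).

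**Figure D4:**
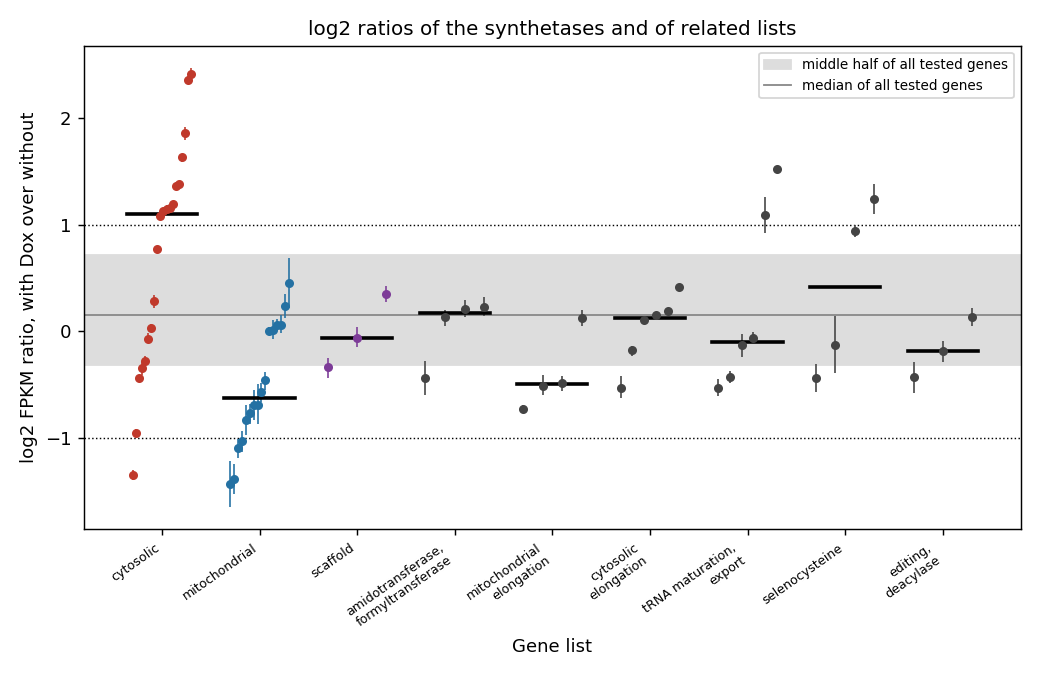
Log2 FPKM ratio (with Dox over without) of each tested gene by list, with exact binomial 95% counting intervals as vertical lines, list medians as black bars, dotted lines at 2-fold, and the median and middle 50% of all tested genes in grey. The cytosolic enzymes reach 2.41 with a median of 1.10, the mitochondrial enzymes reach -1.43 with a median of -0.63, and among the other lists XPOT is the highest at 1.52.

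The tables also list for each gene a mean transcript length weighted by the estimated abundance of its transcripts, which the choice of members did not use. It was within 5% between the libraries for 30 of the 39 members, longer with Dox by more than 5% for 7 and shorter for 2. These shares were not computed over all tested genes, so whether they are particular to the members is not known. The greatest difference was in EARS2, whose mean length was 2282.12 bases without Dox and 2688.09 bases with Dox (17.8% longer). WARS2 followed with 2415.43 and 2802.13 bases (16.0%) and GARS with 1814.23 and 2026.79 bases (11.7%). Since FPKM divides by length, the log2 ratio of library-scaled counts, with no length term, was -0.32 for EARS2 against -0.57 on FPKM. For WARS2 it was -1.24 against -1.43, and for GARS 1.56 against 1.38. Whether transcripts differed in use or only in how reads were apportioned cannot be told apart in gene tables.

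Of the 39 members, 23 share exon bases with another gene in GENCODE release 29, with 24 overlaps on the opposite strand and 7 on the same strand. Whether the counting used strand is not given in the sources used here, and overlaps on the same strand would remain either way. MARS shares 355 bases with DDIT3, the gene of the stress factor CHOP, on the opposite strand, and DDIT3 had 272.72 counts without Dox and 2359.49 with Dox. It also shares 519 bases with ARHGAP9, which had 98 counts without Dox and 1409.8 with Dox, against 9826 and 27021 counts for MARS. SARS2 shares 349 bases on the opposite strand with MRPS12, a mitochondrial ribosomal protein gene, which had 86.41 FPKM without Dox and 33.07 FPKM with Dox. On the same strand SARS2 shares 1492 of its 3231 exon bases with AC011455.2, for which no value is listed under that name. VARS2 shares 1858 bases on the same strand with GTF2H4, which had 2066.63 counts without Dox and 1530.26 with Dox. HARS and HARS2 share 437 bases with each other on opposite strands. The part of shared bases in these values was not tested. Counts were not whole in at least 1 library for 15 members, MARS, SARS2 and HARS among them, so that reads of these genes were partly apportioned. Neither these 15 nor the 23 with shared bases were set beside a share over all tested genes, which was not computed.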

How the data were processed

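RNA-seq data of 2 libraries of ARP1-SRD5A1-KD cells were used, 1 without Dox and 1 with Dox, grouped by their treatment labels. The authors deposited an expected count, a TPM and an FPKM value for each of 57485 genes, with mean and effective transcript lengths in bases, in the table layout of RSEM. TPM scales counts by effective length and library, and FPKM by effective length and total count. Per the submitters' processing notes, Bowtie 0.12.2, HISAT2 2.1.0, StringTie 1.3.4d and hg19 were named, without role or order. The listed transcripts are those of GENCODE release 29, so coordinates were taken from that annotation (GRCh38) by gene identity, and not from the files.

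Log2 ratios of FPKM used a pseudocount of 0.1 and the genes that reached 1 FPKM in either library, and those past 2-fold were counted. The study called DEGs with edgeR, which cannot estimate a dispersion from 1 library per group, so no test was made. TMM factors (edgeR 4.0.16) and DESeq2 1.42.0 size factors, from rounded expected counts of genes with a sum of 10 or more in R 4.3.3, served as scaling alternatives. Python 3.11.15 with numpy 2.4.6, pandas 2.3.3, scipy 1.17.1 and matplotlib 3.10.9 was used for the rest. With 45918570 and 48728927 counts, 3 counts equal 0.065 and 0.062 of every 1000000. RefSeq promoter windows (GRCh38.p14) were matched by gene identity. DARS, LARS, VARS, YARS, AARS2 and VARS2 had no entry. The stricter motif was added after the sequences had been seen. All 39 members are named, and of the other lists the genes past 2-fold and the most abundant, while overlapping genes were named after their values were seen. The members and lists were chosen with earlier results of these data known. On counts simulated with counting error only, the log2 ratio of library-scaled counts, the 2-fold limit and the counting interval were tested. The other steps were not tested on simulated data. Of the mature B cell markers, 1 is not reported here.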

Additional observations from a re-analysis of the deposited data

How the results depend on the processing

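The alternatives were a pseudocount of 1 or 0.01 FPKM, no filter on low values, a filter at 5 FPKM, TPM, TMM factors, DESeq2 size factors, and library-scaled counts without a length term. The 3474 tested genes past 2-fold (2521 higher and 953 lower with Dox) became 2257 with a pseudocount of 1 FPKM (1606 and 651), 6632 without a filter (4735 and 1897) and 1859 with at least 5 FPKM (1256 and 603). The cytosolic and mitochondrial medians, the difference between them and the totals of members past 2-fold kept their direction and stayed within 1.5 times under these 8 alternatives, although 11 cytosolic genes more than 2-fold higher became 6 with TMM or DESeq2 scaling. TPM, TMM and DESeq2 scaling shift all log2 ratios alike, so the difference between the medians could not change with them beyond the pseudocount. The scaffold median of -0.06 became 0.04 with TPM, -0.26 with TMM and -0.27 with DESeq2 scaling. Of 311 member values, 192 lay within the counting interval of the deposited FPKM and 119 outside it. AIMP2, FARSB, HARS2, IARS2, QARS and VARS2 changed sign, and TARS2, at 0.00 on deposited FPKM, ranged from -0.21 to 0.11. No paired analysis was possible because each condition had 1 library, and for the same reason no replicate could be left out. Depth limits WARS2 and PARS2 most, with 253 and 251 counts in their lower library.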
